A study of Mus musculus with 12 samples.

Results

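The endothelin system was examined in the retina of mice with oxygen-induced retinopathy (OIR) through 7 of the 36131 genes in the count table: the ligand genes Edn1, Edn2 and Edn3, the receptor genes Ednra and Ednrb, and the converting enzyme genes Ece1 and Ece2. They were chosen by symbol, each matched 1 row of the table, and all 7 passed the filter on low counts. The choice was made knowing that Edn2 and Ednra were among the strongest differences between O2-PBS and RA-PBS retinas, so that comparison is given for these genes as a description, without a test. All mice were C57BL/6J wildtype and retinas were taken at P18. RA-PBS mice stayed in room air (RA) and received placebo (PBS). O2-PBS mice breathed 75% O2 from P7, returned to room air and received the same placebo. O2-IC100 mice had the same oxygen exposure and received IC100, a humanized antibody against the inflammasome adaptor ASC, injected into the peritoneum at 10 µg/g on the days P12, P14 and P16. Each group held 4 mice, numbered 1 to 4 in RA-PBS, 5 to 8 in O2-PBS and 9 to 12 in O2-IC100. The sample labels give the intraperitoneal schedule for placebo as well, whereas the study's text describes placebo as given into the vitreous, so a difference in injection route between O2-PBS and O2-IC100 cannot be told apart from the antibody. The labels place the return to room air at P12.

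Endothelins are short peptides that act on blood vessels, glia and neurons. Each is made as a long precursor that proprotein convertases cut to an inactive "big" endothelin, which the membrane metalloproteases encoded by Ece1 and Ece2 cut again to the active form. The receptor encoded by Ednra sits mainly on vascular smooth muscle and pericytes, prefers endothelin-1 and endothelin-2, and constricts vessels through G proteins, phospholipase C and calcium. The receptor encoded by Ednrb binds all the ligands about equally and is found on endothelium, where it raises nitric oxide and clears the peptides, and on glia, melanocytes and neural crest. In the retina, Edn2 is known as a gene that stressed photoreceptors switch on, acting on Ednrb of Müller glia, and excess endothelin-2 is known to hold back retinal vessel growth. In OIR the young retina loses capillaries in high oxygen and, back in room air, becomes hypoxic and grows vessel tufts into the vitreous.

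Totals per retina ran from 14907143 to 24438082 counts. O2-IC100 animal 10 stood apart: lens crystallin genes took 58.9% of its counts (95% Wilson interval 58.88 to 58.92%, counting error only), against 0.00313 to 4.49% in RA-PBS and at most 0.0157% in the remaining retinas, and rod genes took 0.351%, against 4.12 to 5.12% in the other 11. RA-PBS animal 4 also stood apart, with 5972 CPM (counts scaled to a common library size) summed over genes of myelinating glia, where 10 retinas had 59.8 to 74.8 and animal 10 had 174.6. Transcripts of the Y chromosome summed to 239 to 295 CPM in RA-PBS animals 1 to 3 and to 5.99 in animal 4, to 8.82 to 10.9 in O2-PBS animals 5 to 7 and to 259 in animal 8, and to 320 to 372 in O2-IC100 animals 9, 11 and 12 and to 1.32 in animal 10. The members' IC100 results are therefore given with and without animal 10. The CPM of the 7 members below are scaled by TMM, a library size correction, over all 12 retinas. Summed levels of gene lists are CPM of the library total, without TMM. The TMM factor, by which CPM are divided, was 0.324 in animal 10 and 1.07 to 1.15 in the other 11. Values of animal 10 on the 2 scales are therefore not comparable, and its rank in member CPM depends on that factor. A gene counted as called when edgeR's two-sided quasi-likelihood test gave it p under 0.05, a Benjamini-Hochberg adjusted p under 0.1 over all tested genes, and a fold of 1.5 or more. Because whole retinas were sequenced, fewer cells of a type and less RNA per cell cannot be told apart in any of these values.

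The promoter letters of Edn2 and Ednra are shown because these are the genes on which the oxygen and IC100 comparisons turn. Each is the 250 bases before the RefSeq start (build GRCm38.p6), written 5′ to 3′ on the gene's own strand. Capitals mark a core of the hypoxia response element, GCGTG, on the opposite strand (written CACGC here).
Edn2 (chr4:120160956-120161205, plus strand): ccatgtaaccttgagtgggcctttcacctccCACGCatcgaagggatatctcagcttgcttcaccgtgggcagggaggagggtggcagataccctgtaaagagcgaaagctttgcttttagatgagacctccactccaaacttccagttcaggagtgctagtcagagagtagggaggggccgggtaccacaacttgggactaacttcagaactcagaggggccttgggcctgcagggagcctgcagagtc
Ednra (chr8:77724453-77724702, minus strand): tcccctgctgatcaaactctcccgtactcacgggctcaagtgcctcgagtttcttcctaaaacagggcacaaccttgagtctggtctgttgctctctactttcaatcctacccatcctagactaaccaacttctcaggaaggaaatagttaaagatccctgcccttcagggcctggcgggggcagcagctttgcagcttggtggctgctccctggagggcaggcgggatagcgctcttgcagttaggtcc
The cores ACGTG and GCGTG, the STAT motif TTCNNNGAA and the AP-1 motif TGANTCA were searched on both strands. The Edn2 window held 1 GCGTG core, 219 bases before the start, and no other of these motifs, and the Ednra window held none of them. Among the other members, the windows of Edn1 and Edn3 held neither core, and those of Ednrb, Ece2 and 3 of the 4 starts of Ece1 held at least 1. The Ednrb start was the only one whose following bases were not found in an annotated transcript of its gene. Its window lies inside the annotated gene, so it may not be the promoter in use. For scale, 28.17% of 32841 RefSeq starts had GCGTG and 16.57% had ACGTG in the same window, and 38.6% had at least 1 of the pair. The STAT motif was in 7.02% and the AP-1 motif in 6.75% of the starts, and in none of the members' windows. A match to a core this short is a description of the letters only.

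**Figure D1:**
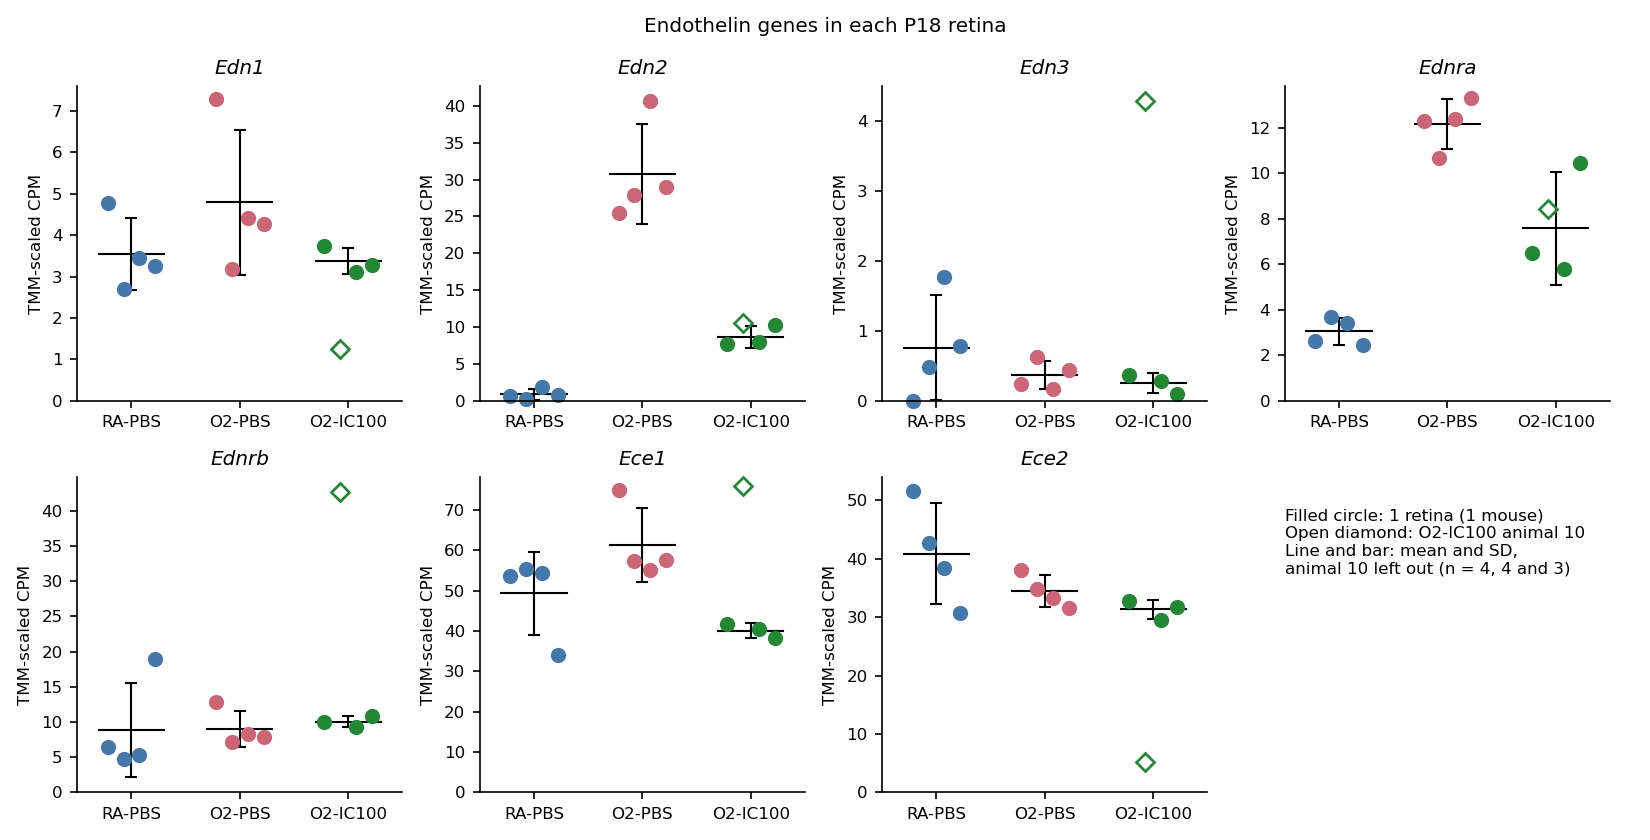
Normalised read counts (TMM-scaled CPM, linear axes from 0) of the 7 endothelin genes in each retina by group, with the mean and SD over 4 RA-PBS, 4 O2-PBS and 3 O2-IC100 retinas, animal 10 (open diamond) left out of them. Edn2 and Ednra separate the 3 groups with O2-IC100 in between, and animal 10 lies far from its group for Edn3, Ednrb, Ece1 and Ece2.

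Across the 7 members, 2 lay wholly higher in O2-PBS than in RA-PBS retinas (Edn2 and Ednra), and these 2 were past the thresholds. They are the genes the choice rested on, so this count follows from the choice and is no test. Of all tested genes 7.81% lay wholly higher there, and edgeR called 0.807% with all 12 animals and 6.27% without animal 10. In O2-IC100 against O2-PBS retinas, 2 members lay wholly lower with all 12 animals (Edn2 and Ednra) and 3 without animal 10 (Ece1 also), where 10.7 and 17.4% of all tested genes did so. Since Edn2 and Ednra were chosen for their O2-PBS level, their part in the counts of this comparison is not independent of the choice. With all 12 animals edgeR called 0 of 7 members there and 0% of 16489 genes, although 2 members had an unadjusted p under 0.05, and DESeq2 called 1 of 7 and 0.644% of all genes. Without animal 10 edgeR called 1 of 7 members (Edn2) and 0.947% of 16688 genes, and DESeq2 called 3 of 7 and 2.64%. In O2-IC100 against RA-PBS retinas, 2 members lay wholly higher, with and without animal 10 (Edn2 and Ednra), where 2.57% of all tested genes did so with it and 5.2% without it. With all 12 animals edgeR called 0 of 7 members there and 0% of all genes, with 2 members at an unadjusted p under 0.05, and DESeq2 called 2 of 7 and 1.61%. Without animal 10 edgeR called 2 of 7 members (Edn2 and Ednra) and 1.56% of all genes, and DESeq2 called 2 of 7 and 3.33%. The median log2 fold change of the 7 members in O2-IC100 against O2-PBS was -0.47 with all 12 animals and -0.55 without animal 10, against 0.00 for all tested genes in both fits.

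Of the ligands, Edn2 (ENSMUSG00000028635, chr4:120161206-120167360 of GRCm38) differed most between the groups. It was nearly silent in room air, with 0.617, 0.29, 1.94 and 0.79 CPM in RA-PBS animals 1 to 4, which rest on 11, 6, 35 and 15 counts. After oxygen and placebo it stood at 25.4, 27.9, 40.7 and 29.0 CPM in animals 5 to 8. After oxygen and IC100 it stood at 7.72, 10.6, 7.97 and 10.3 CPM in animals 9 to 12. Every O2-PBS retina was above every O2-IC100 retina, and every O2-IC100 retina, the lens-rich animal 10 included, was above every RA-PBS retina. The group means were 0.910 ± 0.719 CPM (SD, n = 4) in RA-PBS, 30.7 ± 6.77 CPM (SD, n = 4) in O2-PBS and 8.68 ± 1.45 CPM (SD, n = 3) in O2-IC100 without animal 10. The oxygen difference was 5.08 on the log2 scale (standard error 0.46). RA-PBS animal 3, the highest of its group and the one with 4.49% crystallin, set much of the room air level: without it the oxygen difference was 5.75 (standard error 0.36).

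The comparison of O2-IC100 with O2-PBS shares the O2-PBS retinas, in which Edn2 and Ednra were chosen for being high. Their tests there are not independent of the choice, which favours a lower value in O2-IC100. The log2 fold change of Edn2 in it was -1.75 with all 12 animals (standard error 0.39, edgeR adjusted p = 0.287) and was not called. Without animal 10 Edn2 fell by 1.81 (standard error 0.31, 95% interval -2.47 to -1.14, edgeR adjusted p = 0.0343) and was called. The common coefficient of biological variation over all genes was 0.382 with animal 10 and 0.174 without it. DESeq2, the tool of the study, called Edn2 with all 12 animals (log2 fold change -1.73, adjusted p = 0.00343). Y-linked levels were low in 3 of 4 O2-PBS retinas and high in O2-IC100 animals 9, 11 and 12, and with that level as a covariate, without animal 10, the value was -1.77 (standard error 0.41, edgeR adjusted p = 0.119) and the call was lost. The part of the Y-linked difference in the Edn2 level cannot be read from these values.

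The comparison with room air shares the RA-PBS retinas with the one on which Edn2 and Ednra were chosen, so their tests there are not independent of the choice. Edn2 in O2-IC100 retinas was higher by 3.28 on the log2 scale without animal 10 (standard error 0.37, edgeR adjusted p = 0.00309) and was called. With all 12 animals the value was 3.33 (standard error 0.44, edgeR adjusted p = 0.119). Leaving out RA-PBS animal 3 from the 12 gave 4.02 (standard error 0.34, edgeR adjusted p = 0.00385), and Edn2 was then called.

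Edn1 (ENSMUSG00000021367, chr13:42301476-42307990), the ligand that endothelium makes, was low and overlapped between the groups. It had 4.77, 2.70, 3.44 and 3.26 CPM in RA-PBS, 7.30, 3.18, 4.41 and 4.27 CPM in O2-PBS and 3.73, 1.26, 3.12 and 3.28 CPM in O2-IC100 retinas. O2-PBS animal 5 was the highest and animal 10, with 10 counts, the lowest. The oxygen difference was 0.43 (standard error 0.34), and without animal 10 the log2 fold change of O2-IC100 against O2-PBS was -0.48 (95% interval -1.08 to 0.11, edgeR adjusted p = 0.338), compared with -0.72 with all 12 animals (95% interval -1.48 to 0.04, edgeR adjusted p = 0.306). Against RA-PBS the values were -0.06 (edgeR adjusted p = 0.946) and, with all 12 animals, -0.29 (edgeR adjusted p = 0.682). The other 11 retinas had 56 to 121 counts.

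Edn3 (ENSMUSG00000027524, chr2:174760619-174784042), known for its part in melanocyte and enteric neuron development, was at the limit of detection. Its counts were 0, 10, 32 and 15 in RA-PBS, 4, 12, 3 and 8 in O2-PBS and 7, 34, 6 and 2 in O2-IC100 retinas. The 0 in animal 1 allows up to 0.182 CPM of the unscaled library (3 counts). The highest counts, 34 and 32, were in the retinas with the most lens RNA, animal 10 and the RA-PBS animal with 4.49% crystallin. Within RA-PBS, 15 and 10 counts were in those with 1.44 and 1.25%, and 0 in the animal with 0.00313%. The order did not hold across groups: O2-PBS animal 6, at 0.0157% crystallin, had 12 counts, more than the 10 of RA-PBS animal 2, at 1.25%. The part of lens or adjacent tissue in these counts was not tested. The log2 fold change of O2-IC100 against O2-PBS was 1.55 with animal 10 (95% interval -1.09 to 4.19) and -0.55 without it (95% interval -2.59 to 1.5, edgeR adjusted p = 0.769), so 1 library set its direction. Against RA-PBS the values were 0.53 with animal 10 (edgeR adjusted p = 0.826) and -1.56 without it (edgeR adjusted p = 0.436).

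Levels of different genes can be compared only per length, here as CPM per kb of the longest coding transcript. On that scale the 3 ligand genes summed to 2.52 ± 0.785 CPM per kb (SD, n = 4) in RA-PBS, 23.4 ± 4.39 (SD, n = 4) in O2-PBS and 7.60 ± 0.910 (SD, n = 3) in O2-IC100 without animal 10. Edn1 was the leading ligand in every RA-PBS retina and Edn2 in every retina of the other groups. The share of Edn2 in the ligand sum was 15.9, 12.3, 37.9 and 23.3% in RA-PBS, 83.3, 91.9, 92.9 and 90.3% in O2-PBS and 73.9, 78.7, 77.8 and 81.9% in O2-IC100 retinas. The shares did not overlap between the 3 groups, also with animal 10. No test was made, since Edn2 was chosen for its level in O2-PBS.

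**Figure D2:**
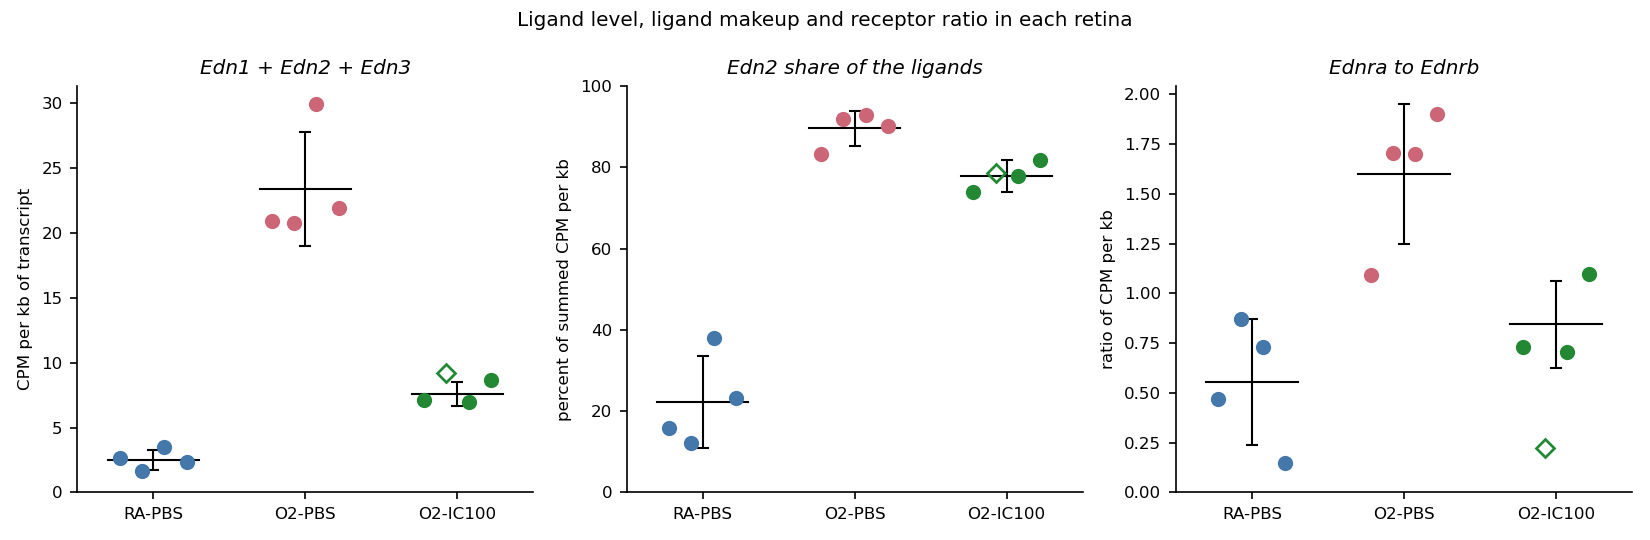
Summed ligand level (CPM per kb), share of Edn2 in it (percent) and ratio of Ednra to Ednrb (per kb) in each retina, with the mean and SD without animal 10 (open diamond). Edn2 makes up 12.3 to 37.9% of the ligands in RA-PBS and at least 73.9% in every retina exposed to oxygen, and the receptor ratio is lowest in RA-PBS animal 4 and O2-IC100 animal 10.

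Of the receptors, Ednra (ENSMUSG00000031616, chr8:77663031-77724464) followed the same order of groups as Edn2 on a smaller scale. It had 2.64, 3.67, 3.44 and 2.47 CPM in RA-PBS, 12.3, 10.7, 12.4 and 13.3 CPM in O2-PBS and 6.49, 8.46, 5.81 and 10.4 CPM in O2-IC100 retinas. On the TMM scale the 3 groups did not overlap, and animal 12 of O2-IC100, at 10.4, came close to the lowest O2-PBS retina, at 10.7. The 8.46 CPM of animal 10 came from 67 counts and its TMM factor of 0.324, so its place between the groups depends on that scaling. The means were 3.06 ± 0.589 CPM (SD, n = 4), 12.2 ± 1.09 CPM (SD, n = 4) and, without animal 10, 7.58 ± 2.5 CPM (SD, n = 3). The oxygen difference was 1.99 on the log2 scale (standard error 0.22).

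In the IC100 comparison Ednra did not pass the adjusted threshold. Its log2 fold change was -0.64 with all 12 animals (standard error 0.21, edgeR adjusted p = 0.287) and -0.67 without animal 10 (95% interval -1.11 to -0.23, edgeR adjusted p = 0.154). It was called by DESeq2 without animal 10 (adjusted p = 0.0525) and by edgeR without animals 4 and 10 (adjusted p = 0.0682). Both of these fits were chosen after seeing the data. DESeq2 with all 12 animals (adjusted p = 0.210) and limma voom (adjusted p = 0.435) did not call it. With the Y-linked covariate and without animal 10, Ednra had a log2 fold change of -0.89 (edgeR adjusted p = 0.128) and was not called. Against RA-PBS it stayed higher: by 1.32 on the log2 scale without animal 10 (standard error 0.21, edgeR adjusted p = 0.0183), which was called, while the fit of all 12 animals gave 1.35 (edgeR adjusted p = 0.175).

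Ednrb (ENSMUSG00000022122, chr14:103814625-103844402) had 6.39, 4.78, 5.33 and 18.9 CPM in RA-PBS, 12.8, 7.09, 8.25 and 7.93 CPM in O2-PBS and 10.1, 42.7, 9.31 and 10.8 CPM in O2-IC100 retinas. RA-PBS animals 1 to 3 were below every retina exposed to oxygen, animal 4 was above all of these but animal 10, and O2-PBS and O2-IC100 overlapped. That animal is the one with 5972 CPM of myelinating glia genes, a list chosen after the values were seen, and animal 10, the highest, had 1546.5 CPM of melanocyte genes, where the other 11 had 51.2 to 133. Melanocyte genes were not alone in this. Animal 10 also had the most pigment epithelium genes (2457 CPM, 364 to 749 in the other 11). The same held for blood genes (2671 CPM, 93.0 to 276) and astrocyte genes (186 CPM, 53.8 to 125), besides its lens genes. The part of these tissues in the Ednrb level was not tested. The oxygen difference was 0.03 with all 12 animals (standard error 0.57) and 0.71 without animals 4 and 10 (standard error 0.20), a fit chosen after seeing the data. Against RA-PBS, the log2 fold change in O2-IC100 was 1.03 with all 12 animals (95% interval -0.24 to 2.29, edgeR adjusted p = 0.403), 0.20 without animal 10 (edgeR adjusted p = 0.853), and 0.89 without animals 4 and 10 (standard error 0.21, edgeR adjusted p = 0.0219), where Ednrb was called. Against O2-PBS it was 1.00 with all 12 animals (95% interval -0.26 to 2.27, edgeR adjusted p = 0.366), 0.18 without animal 10 (95% interval -0.72 to 1.07, edgeR adjusted p = 0.834), and 1.02 with the Y-linked covariate added (95% interval 0.30 to 1.73, edgeR adjusted p = 0.136). Without animals 4 and 10 it was 0.18 (edgeR adjusted p = 0.599). Animal 4 is the only RA-PBS retina with a low Y-linked level, so it weighs on the estimate with that covariate.

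The balance of the receptors per kb of transcript leaned to Ednrb in room air and to Ednra in O2-PBS. The ratio of Ednra to Ednrb was 0.467, 0.870, 0.732 and 0.148 in RA-PBS, 1.09, 1.71, 1.70 and 1.90 in O2-PBS and 0.731, 0.225, 0.707 and 1.10 in O2-IC100 retinas. Every O2-PBS ratio was above every RA-PBS ratio, and the O2-IC100 values overlapped with both groups. Without animal 4, the RA-PBS ratios were 0.467 to 0.870. No test was made of the ratio, since Ednra was chosen for its oxygen difference.

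**Figure D3:**
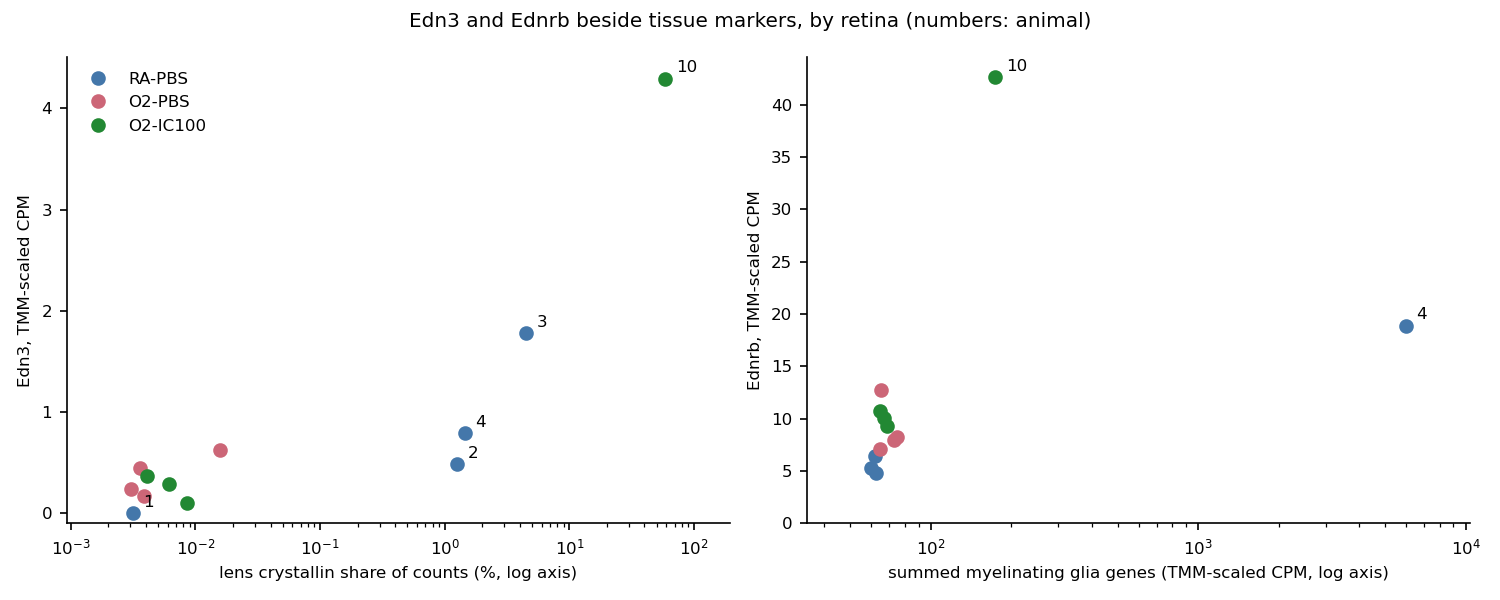
Left, Edn3 (TMM-scaled CPM) against the lens crystallin share of all counts (percent, log axis), and right, Ednrb against the summed level of myelinating glia genes (log axis), with 1 point per retina coloured by group and numbered where it stands apart. Edn3 is highest in the retinas with the most crystallin (animals 3 and 10), and Ednrb is highest in animals 4 and 10. The summed level is CPM of the library total, although its axis is labelled TMM-scaled.

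Per kb of transcript, the converting enzyme genes were the most abundant members in RA-PBS. Ece1 (ENSMUSG00000057530, chr4:137862237-137965229), which encodes the main enzyme for big endothelins, had 53.6, 55.3, 54.5 and 34.1 CPM in RA-PBS, 75.1, 57.4, 55.2 and 57.6 CPM in O2-PBS and 41.8, 76.0, 40.4 and 38.2 CPM in O2-IC100 retinas. O2-IC100 animals 9, 11 and 12 were below every O2-PBS retina and below RA-PBS animals 1 to 3. On the TMM scale animal 4 was the lowest of all and animal 10 the highest. The value of animal 10 came from 602 counts, the fewest of any retina, and its TMM factor of 0.324. The log2 fold change of O2-IC100 against O2-PBS was -0.32 with all 12 animals (standard error 0.24, edgeR adjusted p = 0.464) and -0.60 without animal 10 (standard error 0.16, 95% interval -0.93 to -0.26, edgeR adjusted p = 0.110), not called in either. DESeq2 without animal 10 called it (adjusted p = 0.0148), as did edgeR without animals 4 and 10 (adjusted p = 0.0128). Both of these fits were chosen after seeing the data. With the Y-linked covariate and without animal 10, Ece1 was not called. Against RA-PBS the values were -0.01 with all 12 animals (edgeR adjusted p = 0.987) and -0.28 without animal 10 (edgeR adjusted p = 0.406). The oxygen difference was 0.31 (standard error 0.24).

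Ece2 (ENSMUSG00000022842, chr16:20629828-20646485), the enzyme of acidic vesicles in neurons and endocrine cells, had 51.6, 42.7, 38.5 and 30.8 CPM in RA-PBS, 38.1, 34.9, 33.2 and 31.6 CPM in O2-PBS and 32.7, 5.18, 29.6 and 31.7 CPM in O2-IC100 retinas. Animal 10, which also had the fewest rod reads, was the lowest, and the other retinas overlapped across the groups. The log2 fold change of O2-IC100 against O2-PBS was -0.12 without animal 10 (95% interval -0.43 to 0.18, edgeR adjusted p = 0.644), and that against RA-PBS was -0.37 (95% interval -0.67 to -0.07, edgeR adjusted p = 0.224). The fit of all 12 animals gave -0.47 (95% interval -1.37 to 0.43, edgeR adjusted p = 0.544) and -0.71 (95% interval -1.62 to 0.19, edgeR adjusted p = 0.411). Ece2 shares exons with the read-through gene Gm49333, listed at 0 to 40.4 counts, so the split of reads between them is uncertain. Edn1, Ednra and Ece1 each overlap an annotated gene on the opposite strand, and whether the libraries kept strand is not given in the sources used here.

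Ordered per kb, the RA-PBS means were 11.9 ± 2.52 CPM per kb (SD, n = 4) for Ece2, 10.2 ± 2.12 for Ece1, 2.16 ± 1.64 for Ednrb, 1.66 ± 0.409 for Edn1, 0.843 ± 0.162 for Ednra, 0.622 ± 0.492 for Edn2 and 0.245 ± 0.241 for Edn3. The enzymes lay within 1 SD of each other, as did Ednrb and Edn1, Ednra and Edn2, and Edn2 and Edn3. Ednra and Edn2 also lay within 1 SD of Ednrb, whose SD of 1.64 is wide. In O2-PBS, Edn2 led with 21.0 ± 4.63 CPM per kb, followed by Ece1 with 12.7 ± 1.92, Ece2 with 10.0 ± 0.806 and Ednra with 3.36 ± 0.300. Edn1 with 2.24 ± 0.823 and Ednrb with 2.19 ± 0.623 did not differ beyond their spread, and Edn3 was last with 0.119 ± 0.0661. In O2-IC100 without animal 10, Ece2 had 9.09 ± 0.468 (SD, n = 3), Ece1 8.34 ± 0.382, Edn2 5.94 ± 0.991, Ednrb 2.45 ± 0.179, Ednra 2.09 ± 0.690, Edn1 1.58 ± 0.147 and Edn3 0.0811 ± 0.0451. There Ednrb and Ednra, and Ednra and Edn1, lay within 1 SD of each other.

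**Figure D4:**
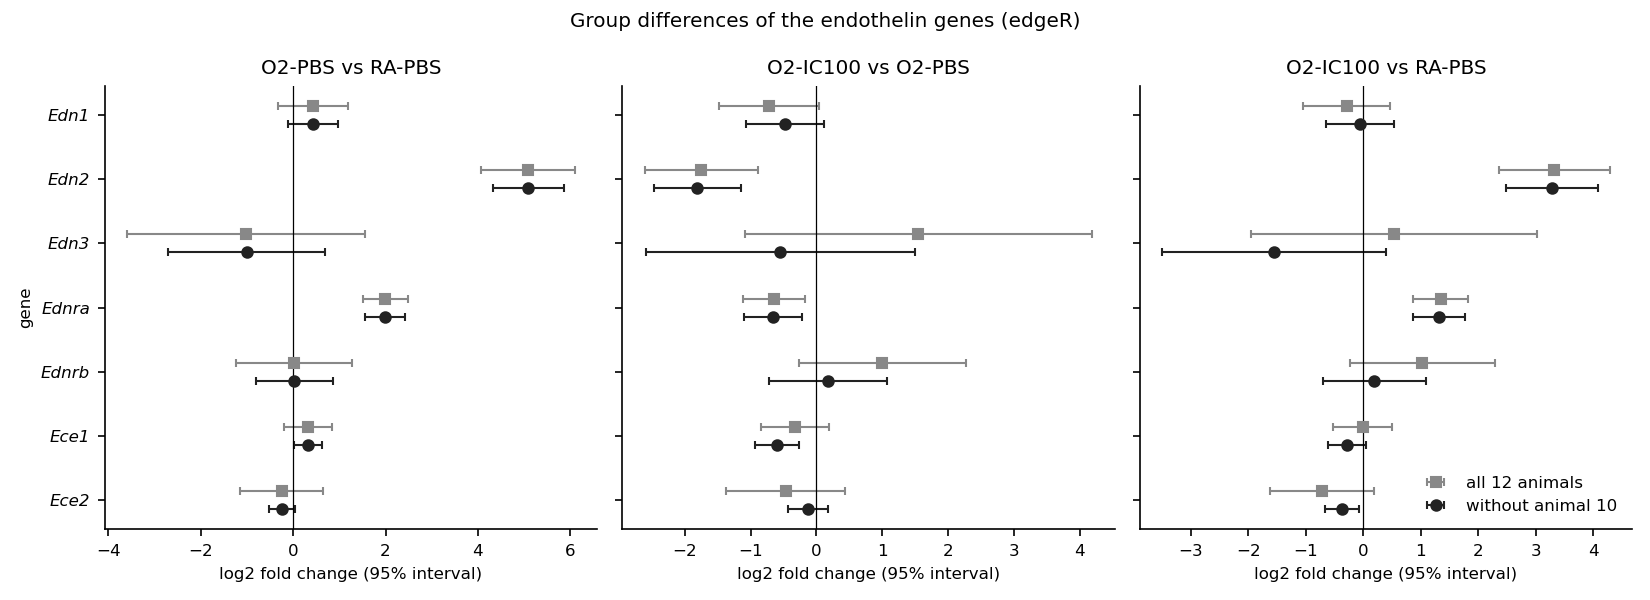
Log2 fold changes of the 7 genes in the 3 comparisons with 95% intervals from edgeR, with all 12 animals (grey squares) and without O2-IC100 animal 10 (black circles). Leaving out animal 10 moves Edn3 and Ednrb most and narrows most intervals, and it hardly moves Edn2 and Ednra.

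The wider pathway was described through 4 lists, all in the fit without animal 10 with edgeR adjusted p-values unless stated. The lists were chosen with earlier results of these data known, so their p-values are a description and no independent test. The lists' counts stand beside 6.27% of all tested genes called for oxygen, 0.947% for O2-IC100 against O2-PBS and 1.56% against RA-PBS. Nothing is read from a count of 1 or 2 genes. Y-linked levels were low in O2-PBS animals 5 to 7 and high in RA-PBS animals 1 to 3 and O2-IC100 animals 9, 11 and 12. With that level as a covariate, 880 genes were called for oxygen in place of 1046. For O2-IC100 the calls were 36 in place of 158 against O2-PBS, and 420 in place of 261 against RA-PBS. The part of that level in the calls of list genes was not tested. Of the peptide processing list (convertases and peptidases linked to endothelins by function or only by sequence, as Ecel1 is), 7 of 11 genes were tested. In O2-PBS against RA-PBS retinas 1 was higher and none lower: Ecel1, an endothelin-converting enzyme-like protease known as induced in damaged neurons, by 3.71 on the log2 scale (standard error 0.56, adjusted p = 0.00159). None of the 7 was called in O2-IC100 against O2-PBS. Against RA-PBS, Ecel1 stayed higher in O2-IC100 by 2.73 (adjusted p = 0.0567). The list's median log2 fold change was -0.03 for oxygen and -0.16 for O2-IC100 against O2-PBS, where those of all tested genes were -0.01 and 0.00.

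Of 17 genes of G proteins, receptor kinases, arrestins and RGS regulators, 1 was higher and none lower in O2-PBS than in RA-PBS: Rgs5, a pericyte gene that limits signals of Gq-coupled receptors, by 1.31 (standard error 0.15, adjusted p = 0.000188). None was called between O2-IC100 and O2-PBS, and against RA-PBS Rgs5 was higher by 1.2 (adjusted p = 0.00551) and the receptor kinase gene Grk3 lower, with a log2 fold change of -0.64 (adjusted p = 0.0727). Of 19 tested genes of the signalling below the receptors, the neuronal phospholipase Plcb1 (-0.68, adjusted p = 0.00324) and the protein kinase C gene Prkcb (-0.65, adjusted p = 0.00165) were lower in O2-PBS than in RA-PBS and none was higher. In O2-IC100, Itpr2, a calcium release channel, was lower than in O2-PBS (-0.68, adjusted p = 0.0468), and Itpr1 was lower than in RA-PBS (-0.85, adjusted p = 0.0590). The medians of these lists lay between -0.11 and 0.03 in the oxygen comparison and in that of O2-IC100 with O2-PBS, and those of the vasoactive list below were 0.08 and 0.09.

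Of 17 tested genes of other vasoactive peptides and their receptors, 3 were higher and 3 lower in O2-PBS than in RA-PBS. The vasodilator gene Adm was higher by 3.51 (standard error 0.30, adjusted p = 4.36e-05), the apelin gene Apln by 3.29 (adjusted p = 0.000103) and its receptor gene Aplnr by 1.48 (adjusted p = 0.000427). Lower were Ramp1 (-1.23, adjusted p = 0.0711), Vip (-0.98, adjusted p = 0.00928) and Adcyap1 (-0.82, adjusted p = 0.0351). In O2-IC100 retinas Adm was lower than in O2-PBS (-1.23, standard error 0.28, adjusted p = 0.0825), and Adcyap1, a neuropeptide gene, was higher (1.54, standard error 0.23, adjusted p = 0.0262). Against RA-PBS, Adm (2.28), Apln (2.14) and Aplnr (1.31) were called higher and none was lower. With all 12 animals only Adm and Apln of the 4 lists were called, both in the oxygen comparison.

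**Figure D5:**
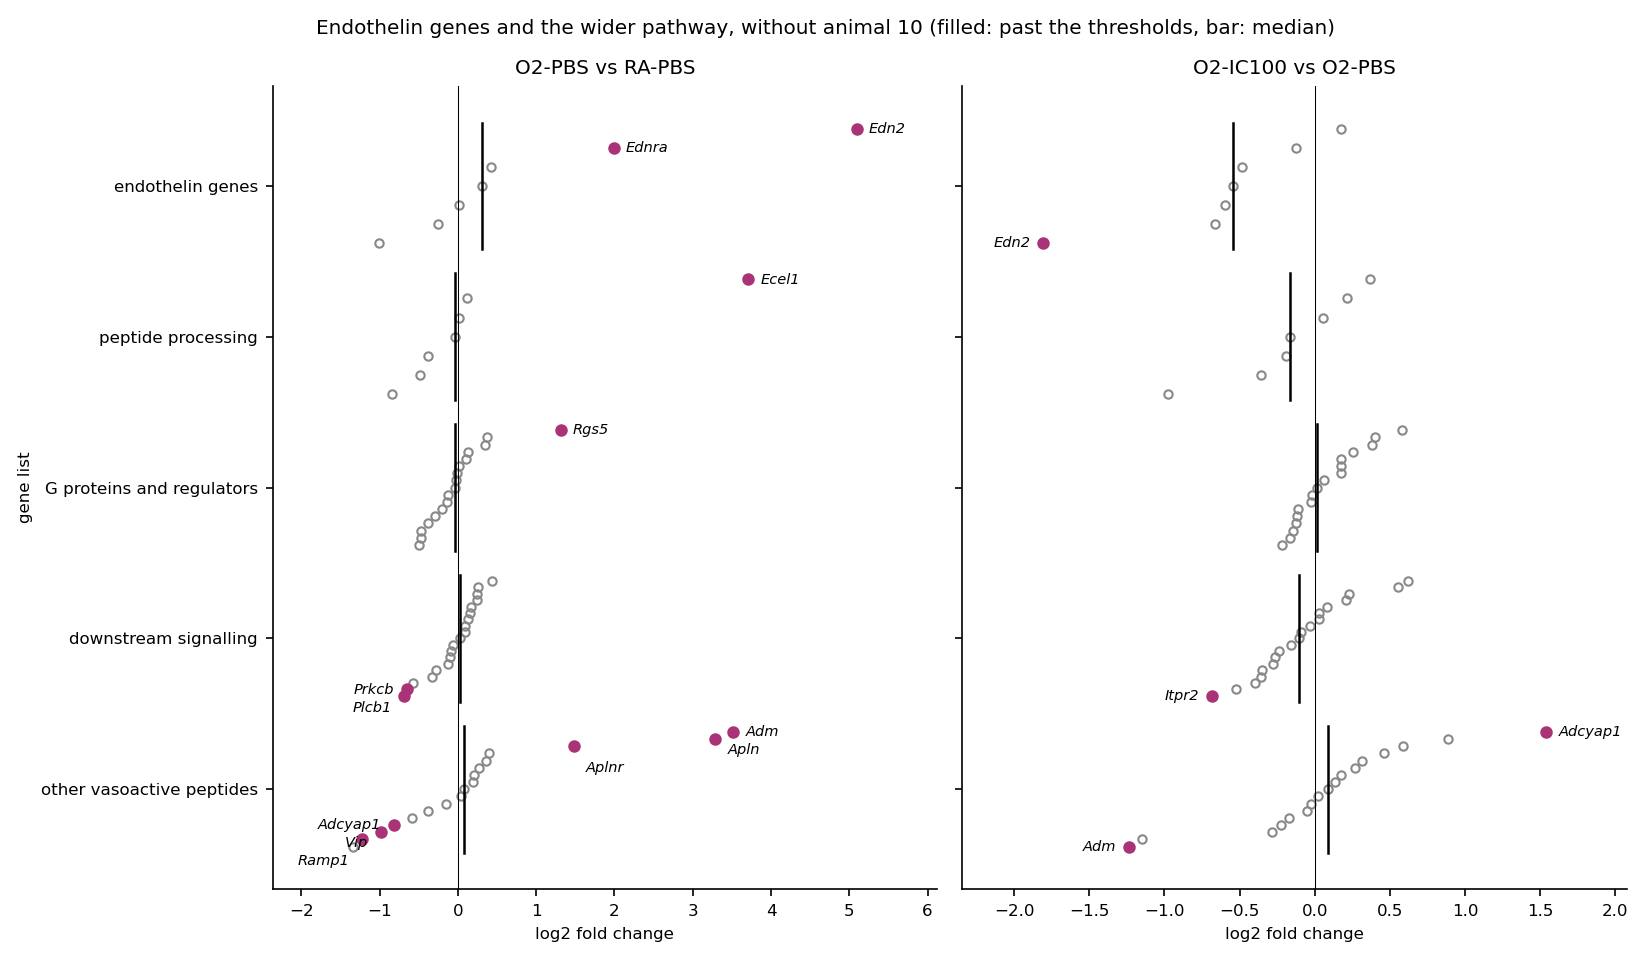
Log2 fold changes of the tested genes of the endothelin list and the 4 wider lists in the fit without animal 10, for O2-PBS against RA-PBS (left) and O2-IC100 against O2-PBS (right). Filled points passed the thresholds and are named, bars are list medians, and the medians of the 4 wider lists lie between -0.16 and 0.09.

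Without animal 10, the median summed levels of endothelial, mural, tip cell, reactive glia and hypoxia genes had the same order of groups as Edn2 and Ednra. Those of Müller glia and microglia genes did not. The order is not particular to these lists. Rod genes (medians 46161 CPM in RA-PBS, 48204 in O2-PBS and 47226 in O2-IC100) and blood genes (140, 158 and 141) had it too, with ranges that overlapped between the groups. For reactive glia genes the RA-PBS range covered that of O2-IC100. The calls of list genes below stand beside 6.27% of all tested genes called for oxygen in this fit. For O2-IC100 that share was 0.947% against O2-PBS and 1.56% against RA-PBS. These lists were also chosen with earlier results of these data known, and the Y-linked difference between the groups applies to their calls as well. Adm and Apln are in the tip cell list and Rgs5 is in the mural list, so the calls given above for them are counted again here. The summed level of 14 endothelial genes was 289.5 to 420.7 CPM in RA-PBS, 634 to 752 in O2-PBS and 447 to 510 in O2-IC100 without animal 10, with 12 of 14 called higher by oxygen and 4 of 14 called lower in O2-IC100 than in O2-PBS. The 10 mural genes summed to 189 to 221, 402 to 593 and 349 to 432 CPM, with 8 called higher and then 3 lower, and the 10 genes of tip cells and tufts to 41.5 to 68.9, 198 to 379 and 114 to 142 CPM, with all 10 called higher and then 5 lower. The 12 genes of reactive glia and the LIF axis summed to 313 to 632, 705 to 1187 and 439 to 515 CPM, with 7 called higher and then 3 lower. The oxygen medians of these lists were 1.11, 1.18, 2.00 and 1.82 on the log2 scale, against -0.01 for all tested genes. With all 12 animals 4, 1, 5 and 4 genes of these lists were called higher by oxygen, where 0.807% of all tested genes were called. None was called lower in O2-IC100, where 0 of all 16489 tested genes were called. Of 10 Müller glia genes 2 were called higher and 2 lower by oxygen without animal 10, of 10 microglia genes 4 higher, of 12 hypoxia targets 2 higher, of 6 astrocyte genes 1 lower and of 8 pigment epithelium genes 6 lower. Müller glia genes summed to 4404.5 to 5978 CPM in RA-PBS, 3830 to 4242 in O2-PBS and 4495 to 4794.5 in O2-IC100 without animal 10, with an oxygen median of -0.43. Microglia genes summed to 59.4 to 106, 109.5 to 138 and 126 to 159 CPM, with 0 of 10 called in O2-IC100 against O2-PBS and 5 higher against RA-PBS. No gene of the endothelial, mural, Müller glia or reactive glia lists was at 0 in any retina, and 1 tip cell gene was at 0 in RA-PBS animal 1. In animal 10 the endothelial genes summed to 28.9 CPM and the rod genes to 3507. Rod genes, from 41212 to 51220 CPM in the other 11 retinas, had 0 of 10 called in either comparison. The part of cell composition in the levels of Edn2 and Ednra was not tested.

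The genes whose pattern lay closest to each member were found by the root mean square difference of centred log2 CPM over the 11 retinas without animal 10, among 15148 genes (15149 for Edn3). For Edn2 they were Esm1, a tip cell gene (0.592), Ndufa4l2, a hypoxia-induced mitochondrial gene (0.668), and Lad1 (0.672), where Edn2 itself varied with an SD of 2.40. For Ednra they were Lcp1, an actin-bundling protein of leukocytes (0.262), Cdh5, the cadherin of endothelial junctions (0.273), and Itga1, a collagen-binding integrin (0.291), at an SD of 0.93 for Ednra. Among the genes closest to Ece1 were Myh10 (0.0653) and Smad3 (0.101), and Ece2 was closest to Magee1 (0.0604), Grip1 (0.0697) and Tfap2b (0.0716). Edn1 was closest to Podnl1, Gls2 and Rai14, Ednrb to Chac1, Rab31 and Rnase4, and Edn3 to Aqp5, B3gnt5 and Perp, at 0.181 to 0.604. With all 12 animals Lad1 and Ndufa4l2 stayed among the 3 closest to Edn2 and Mki67 took the place of Esm1. Of the 3 closest, 1 stayed for Ednra (Lcp1), for Ece1 (Smad3) and for Ece2 (Tfap2b), and 0 for Edn1, Edn3 and Ednrb.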

How the data were processed

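RNA of P18 retinas from 12 mice was sequenced after polyA selection as 150 bp paired-end reads. Using Kallisto, the authors pseudoaligned the reads to a mouse transcriptome (GRCm39_104), then summarized per gene with tximport (versions not given in the sources used here), and the deposited table holds their expected counts per gene, not normalized, for 36131 Ensembl genes. Of its values 42.0% were not whole, and they were rounded. Gene names and lengths came from GENCODE M21 and promoters from RefSeq (both GRCm38), paired by Ensembl ID or symbol. Names were found for 35374 genes.

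Groups came from the sample labels. Counts were normalized by TMM, filtered by filterByExpr and fitted in edgeR 4.0.16 (R 4.3.3) with a robust quasi-likelihood model of the 3 groups and no covariate, in all 12 animals (16489 genes) and without animal 10 (16688 genes). The calling thresholds are those of the study. DESeq2 1.42.0, which the study used, limma voom 3.58.1, other normalizations, filters, covariates and left-out animals were alternatives, of which the fits without animals 3 and 10, without animals 4 and 10 and with DESeq2 without animal 10 were chosen after seeing the data. The 3-count floor corresponds to 0.123 to 0.201 CPM. The edgeR procedure was tested on simulated data. These held no outlier retina like animal 10 and had changes only in genes above the median level, so they do not cover such a retina or scarce genes.

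The members and lists were chosen with earlier results of these data known. Genes named are the 7 members, every called gene of the 4 wider lists (up to 6 per direction, list and comparison), the 3 nearest patterns per member (prior count 2, mean of at least 1 CPM) and genes that overlap a member. A gene of the vasoactive list and a near pattern are not reported here. The named marker lists are in the report.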

Additional observations from a re-analysis of the deposited data

Results flagged for a closer look

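Within 27 groups of 4 retinas (the 7 genes, the receptor ratio and the share of Edn2), a sample stood far from the other 3 in 7, by the gap to its neighbour as a share of the range (Dixon's criterion). Chance flags about 1 in 20 groups. In O2-IC100 this was animal 10 for 4 genes: Edn3 at 4.29 CPM against 0.0981 to 0.373 in the other 3, Ednrb at 42.7 against 9.31 to 10.8, Ece1 at 76.0 against 38.2 to 41.8, and Ece2 at 5.18 against 29.6 to 32.7. Animal 10 was not flagged for Edn1, Edn2 or Ednra. In RA-PBS it was animal 4, for Ednrb at 18.9 CPM against 4.78 to 6.39 and for Ece1 at 34.1 against 53.6 to 55.3. In O2-PBS it was animal 5, for Ece1 at 75.1 CPM against 55.2 to 57.6.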

How the results depend on the processing

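No paired analysis was possible because the 12 animals carry numbers that no group shares. Between O2-PBS and RA-PBS the count of members called follows from the choice of Edn2 and Ednra and says nothing of stability. It was 2 in the fits that left out 1 animal and 2 or 3 in the others, in fits that called 32 to 2519 of all genes. The fits without animals 3 and 10, without animals 4 and 10 and with DESeq2 without animal 10 were chosen after seeing the data.

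The number of all genes called in a fit stands in brackets below. Between O2-IC100 and O2-PBS, where edgeR called 0 members with all 12 animals, fits that left out 1 animal called 0 to 1 (0 to 158). DESeq2 called 1 (112) and limma voom 1 (2). The fits without animals 1 and 10 (282) and without animals 3 and 10 (274) called 2 each. The fit without animals 4 and 10 (432) and DESeq2 without animal 10 (394) called 3 each. With the Y-linked covariate and without animal 10 the count was 0 (36). Between O2-IC100 and RA-PBS, also 0 with all 12 animals, fits that left out 1 animal called 0 to 2 (0 to 261). DESeq2 called 2 (280), limma voom 1 (2), upper-quartile normalization 1 (3) and no filter on low counts 1 (2). The crystallin covariate called 3 (3654), Ece2 among them with a log2 fold change of -1.35, where the fit with no covariate called 0 of all genes. The Y-linked covariate without animal 10 called 2 (420). The fits without animals 1 and 10 (315) and without animals 3 and 10 (299) called 2 each. The fit without animals 4 and 10 called 3 (925) and DESeq2 without animal 10 called 2 (562). The cause was not tested.

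The direction of Edn2, Ednra and Ece2 held in every alternative of every comparison. In the oxygen comparison Edn1 turned to -0.14 and Edn3 to 1.70 with the crystallin covariate, and Ednrb spanned -0.19 to 0.71 over the fits that left out 1 animal and was -0.24 with the Y-linked covariate, -0.10 without animals 1 and 10 and -0.15 without animals 3 and 10. Between O2-IC100 and O2-PBS Edn3 spanned -0.55 (without animal 10) to 1.99 over those fits and was -0.55 without animals 1 and 10, -0.74 with the crystallin covariate, -0.59 with the Y-linked covariate and -0.56 with DESeq2 without animal 10. Against RA-PBS Edn3 spanned -1.56 (without animal 10) to 1.4 and was -1.58 with the Y-linked covariate, -1.96 without animals 1 and 10 and -1.60 with DESeq2 without animal 10, Edn1 turned to 0.13 without animals 1 and 10, and Ece1 spanned -0.28 to 0.093 over those fits and was 0.034 with the crystallin covariate, 0.0050 with DESeq2 and 0.0092 with RLE normalization. Edn3 did not pass the filter without animals 3 and 10, without animals 4 and 10 or with only the 2 groups compared, and has no value there. The median of all genes moved by under 0.1 in every fit.

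With 6 to 35 counts of Edn2 in room air and 0 to 34 of Edn3, counting error limits both. With 4 mice a group, and 3 in O2-IC100 without animal 10, the intervals of Edn1, Edn3 and Ednrb are wide, and a call that was missed does not show that levels were equal.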
